A study of Mus musculus with 16 samples.

Results

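The nuclei described here come from mouse hippocampus and were chosen by their transcripts: at least 3 UMIs (unique molecular identifiers, each standing for 1 captured RNA molecule) of Tshz2 and at least 1 of Vwc2l. They also held at least 2 UMIs of the vesicular glutamate transporters Slc17a7 and Slc17a6 together, at most 1 of Gad1 and Gad2 together, at most 1 of Prox1 and at most 2 of Foxp2. A barcode counted as a nucleus with at least 500 UMIs, at least 300 genes and at most 5% mitochondrial UMIs. The rule took 5431 of 147873 nuclei, and 5431 of the 40759 excitatory nuclei. Excitatory nuclei are those that met the limits on Slc17a7 with Slc17a6 and on Gad1 with Gad2, whatever their Prox1 and Foxp2 counts. The nuclei of the rule are called Tshz2 Vwc2l nuclei below. Where a comparison is needed, they are set against 22062 other excitatory nuclei that held no UMI of Tshz2 or Vwc2l. These other excitatory nuclei also met the limits on Prox1 and Foxp2, so nuclei rich in either gene are not among them. The rule fixed the levels of its own genes, so every level set against other nuclei is a description without a test.

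The study crossed the presence or absence of Ch25h with the presence or absence of a tau allele in 9-month-old female mice. With Ch25h intact there were 4 libraries from mice with the tau allele (Ch25h+/+ Tau+) and 4 from mice without it (Ch25h+/+ Tau-). In the groups labelled Ch25h-/- there were again 4 with the allele (Ch25h-/- Tau+) and 4 lacking it (Ch25h-/- Tau-). All libraries came from nuclear RNA of the hippocampus, prepared with the 10x Genomics 3' kit of version 3.1. The labels name neither the tau line nor the promoter that drives it, and they do not state that each library is a separate mouse, so p-values measure the spread between these libraries. Ch25h encodes cholesterol 25-hydroxylase, an interferon-induced enzyme that makes 25-hydroxycholesterol.

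Tshz2 encodes a zinc-finger transcription factor and Vwc2l a secreted protein related to the brorin family of bone morphogenetic protein antagonists. In adult mouse forebrain both are known from excitatory neurons outside the hippocampus proper, among them near-projecting cells of deep cortex, cells of the superficial retrosplenial cortex and cells of the subicular complex. These regions border the hippocampus and are called retrohippocampal or parahippocampal, and a hippocampal dissection can carry part of them. Slc17a6 (VGLUT2) loads glutamate into synaptic vesicles in many subcortical neurons and, within cortex, in retrosplenial and subicular cells, while most cortical excitatory neurons use Slc17a7 (VGLUT1).

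A library gave between 89 and 591 Tshz2 Vwc2l nuclei, with a median of 337.5. Summed over these nuclei, a library held between 1108960 and 7080148 UMIs, and the median nucleus of a library held between 7699 and 11793. The smallest library was Ch25h-/- Tau- replicate 4, with 89 nuclei, and it stood apart in makeup as described below. Of 5429 distinct barcodes, 2 occurred in more than 1 library. Doublet scoring marked 558 of the nuclei, or 6.74% to 13.3% by library against 6.51% to 9.33% of all nuclei. They were kept, and each test was repeated without them. Replicates 1 and 2 stood apart from replicates 3 and 4 in some genes: Dnaja2, a co-chaperone, lay at 124 to 150 CPM in replicates 1 and 2 of the 4 groups and at 26.9 to 38.8 CPM in replicates 3 and 4, without overlap. The labels do not name this division as a batch.

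The labelled identity held only in part. Tshz2 averaged 2110 ± 210 CPM (SD, n = 16 libraries; counts of a gene's UMIs scaled to a common total for every library) and Vwc2l averaged 747 ± 96.4 CPM, as the rule required. Slc17a6, the marker the rule used only jointly with Slc17a7, averaged 71.4 ± 20.2 CPM with a range of 50.6 to 119 CPM over libraries. In the other excitatory nuclei Slc17a6 averaged 3.49 CPM and reached at most 6.78 CPM, so the ranges did not overlap. In the Foxp2 excitatory nuclei, described below, Slc17a6 averaged 27.1 CPM (8.51 to 67.9 CPM), which overlapped the range of the Tshz2 Vwc2l nuclei. Those Foxp2 nuclei also carried Tshz2 at 886 CPM and Vwc2l at 308 CPM. At the level of single nuclei, 45.6% of the Tshz2 Vwc2l nuclei held a UMI of Slc17a6, with 36.8% to 65.2% by library. The share was 1.53% to 4.91% in the other excitatory nuclei and 0.280% to 6.62% in Prox1 nuclei, the granule cells of the dentate gyrus, which should lack the gene and whose median depth was 7328 to 9799 UMIs. Slc17a7 was detected in 82.5% to 98.2% of the nuclei. Slc17a6 transcripts were thus found in fewer nuclei than Slc17a7 transcripts, and in some sub-clusters described below they were near the background level. No spatial data were analysed here, so position outside the hippocampus rests on the names of markers alone.

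At the limits of the rule, 150 nuclei had exactly 3 Tshz2 UMIs, and 25.3% of them held a UMI of Slc17a6. Just outside, 187 nuclei had 2 Tshz2 UMIs and met the other criteria, and 24.6% of those held one. A further 3856 nuclei had at least 3 Tshz2 UMIs but none of Vwc2l, and 35.7% of those held Slc17a6. At least 10 Tshz2 UMIs were held by 4423 members (81.4%), while 641 members (11.8%) had exactly 1 Vwc2l UMI, the limit for that gene, and 39.5% of these held Slc17a6.

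Other marker genes gave a mixed picture. The 5 superficial retrosplenial markers summed to 2191 CPM against 5.64 CPM in the other excitatory nuclei. Nearly all of the former came from Tshz2 and Slc17a6, which left little for Cbln1, Scn4b and Cxcl14. The 5 thalamic markers summed to 1242 CPM against 839 CPM and the 5 Cajal-Retzius markers to 82.6 CPM against 18.3 CPM, with overlapping ranges. The thalamic sum was similar in other sets, at 1256 CPM in Foxp2 excitatory nuclei, 1253 CPM in Prox1 nuclei and 1176 CPM in inhibitory nuclei. The 4 extratelencephalic markers summed to 167 CPM against 239 CPM. Cux2 and Cux1, homeodomain factors of upper-layer cortical neurons, averaged 184 and 162 CPM, against 15.8 and 45.1 CPM in the other excitatory nuclei. Of the same list, Rorb averaged 49.3 CPM against 21.0 CPM, while the calcium buffer Calb1 averaged 11.0 CPM against 37.0 CPM and Otof, a calcium sensor of vesicle fusion, 5.83 CPM against 6.96 CPM. Fn1, which encodes fibronectin and marks part of the subiculum, averaged 62.8 CPM (33.7 to 136 CPM) against 2.27 CPM. The 4 subiculum markers summed to 139 CPM (87.0 to 208 CPM) against 7.79 CPM. Of that sum, little was left for Nts and Gpr101 beside Fn1 and Slc17a6. The 9 near-projecting markers, which include Tshz2 and Vwc2l, summed to 3087 CPM against 152 CPM, and to 1705 CPM in the Foxp2 excitatory nuclei. Tshz2, Vwc2l and Slc17a6 alone summed to 2929, 3.49 and 1221 CPM in these 3 sets. Rapgef3, a cAMP-activated exchange factor from the near-projecting list, averaged 20.2 CPM and at most 2.90 CPM in any library of the other excitatory nuclei, while Slc17a8 from the same list stayed at 0.37 CPM. Markers of the hippocampal fields were mixed. The 5 CA1 markers summed to 396 CPM (351 to 457 CPM by library) against 440 CPM (313 to 499.6 CPM), with overlapping ranges. Among them Fibcd1 was at 4.06 CPM against 26.8 CPM, but Wfs1 was at 40.1 CPM against 13.3 CPM and Mpped1 at 126 CPM against 84.3 CPM. The 4 CA3 markers summed to 682 CPM (529 to 791 CPM) against 1060.2 CPM (858 to 1271 CPM), without overlap. Of these, Nectin3 was at 17.5 CPM against 126 CPM and Iyd at 0.71 CPM against 8.19 CPM, while Spock1 was at 446 CPM against 435 CPM. Foxp2, limited by the rule, averaged 17.4 CPM, compared with 496 CPM in the 1405 excitatory nuclei that held more than 2 Foxp2 UMIs and at most 1 of Prox1.

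Markers of other cell classes were measured in the same nuclei. The 8 inhibitory markers summed to between 24.3 and 67.0 CPM by library, with Gad1, limited by the rule, at 1.14 CPM against 309 CPM in inhibitory nuclei. The 8 microglial markers summed to 119 CPM (98.3 to 147 CPM), against 116 CPM in the other excitatory nuclei. The 7 astrocyte markers summed to 555 CPM (391 to 665 CPM) against 348 CPM, and the 6 oligodendrocyte markers to 154 CPM (92.9 to 238 CPM) against 216 CPM. No marker in these lists was at 0 over all libraries. Barcodes under 100 UMIs, which hold free RNA, carried Tshz2 at 196 CPM, Vwc2l at 55.2 CPM and Slc17a6 at 23.1 CPM.

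**Figure D1:**
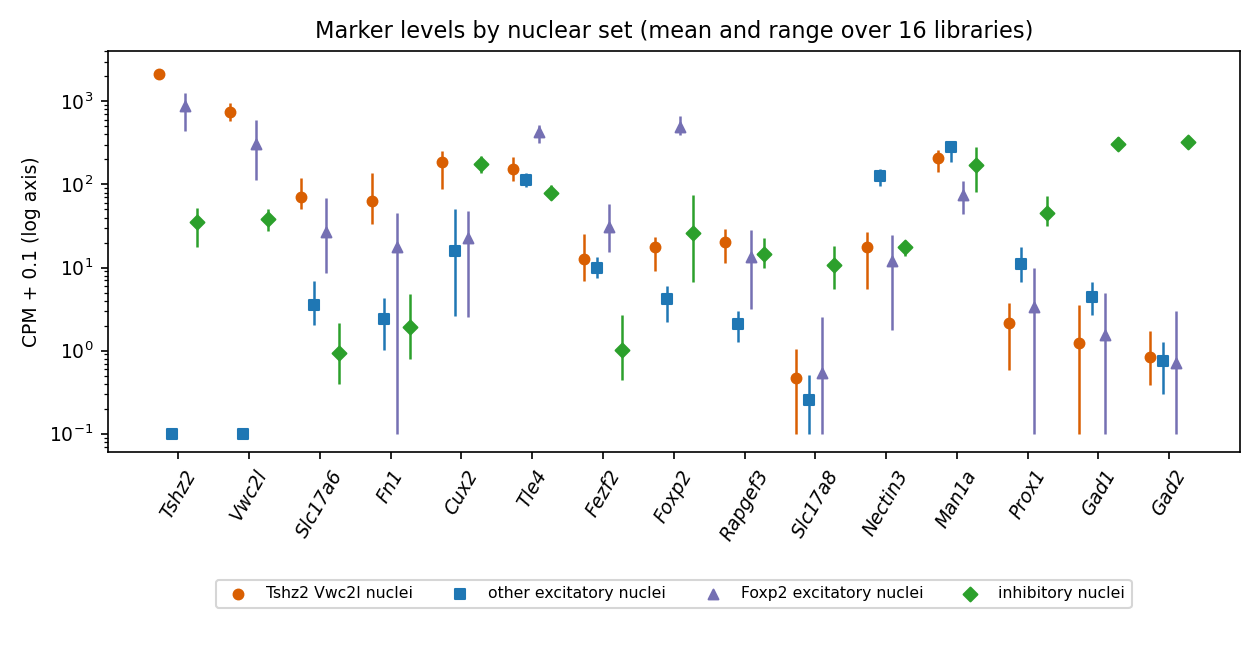
Levels of 15 marker genes (CPM + 0.1, log axis) in 4 sets of nuclei, with a point at the mean and a line over the range of the 16 libraries. Tshz2 and Vwc2l define the nuclei and are at 0 by construction in the other excitatory nuclei, while Slc17a6 lies at 50.6 to 119 CPM in the Tshz2 Vwc2l nuclei and at 1.95 to 6.78 CPM in the other excitatory nuclei.

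Genes that averaged 10 or more UMIs a library in these nuclei, leaving out Tshz2 and Vwc2l, were ranked by the ratio of mean level to the other excitatory nuclei. Of the leading 25, Slc17a6, which the rule used in part, was the 19th. Npsr1, the receptor of neuropeptide S, averaged 69.5 CPM (25.6 to 99.8 CPM by library) against 1.35 CPM. Lef1, a nuclear effector of Wnt signalling, averaged 33.1 CPM (17.7 to 67.6 CPM) against 1.16 CPM. Bmper, a secreted regulator of bone morphogenetic proteins, averaged 96.8 CPM against 4.6 CPM, and the desmosomal cadherin Dsc3 averaged 12.9 CPM against 0.269 CPM. Rmst, a long noncoding RNA of neural cells, averaged 271 CPM against 13.3 CPM, and Unc13c, a synaptic vesicle priming protein, averaged 232 CPM against 12.2 CPM. The potassium channel Kcnh8 averaged 42.8 CPM against 2.26 CPM, and Coro6, a coronin of the actin cytoskeleton, averaged 62.6 CPM against 3.43 CPM. Abca12, a lipid transporter, averaged 19.9 CPM against 0.852 CPM, and Casp1, the inflammasome protease, averaged 6.47 CPM against 0.281 CPM. The highest ratio in this ranking belonged to Tbpl2, a relative of the TATA-binding protein, at 5.05 CPM (0 to 9.31 CPM) against 0.0173 CPM. In the Foxp2 excitatory nuclei 4 of the 25 genes had a higher mean than in the Tshz2 Vwc2l nuclei, namely Rmst at 326 CPM, Kcnh8 at 59.7 CPM, the noncoding gene Gm40518 at 8.70 CPM and the adaptor gene Grb7 at 3.52 CPM. The rest had lower means there, such as Npsr1 at 15.8 CPM, Lef1 at 9.00 CPM and Unc13c at 21.5 CPM.

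The Tshz2 Vwc2l nuclei were not uniform. Clustering of these nuclei alone gave 22 sub-clusters, of which 15 were below 50% doublet-scored nuclei and held 4902 nuclei, and 7 were mostly doublet-scored and held 529. The genes that follow define the sub-clusters and are given as their description. Sub-clusters are called by number, since no fixed marker list was met well enough to name them.

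Sub-cluster 1 was the largest, with 1048 nuclei (19.3%). Its leading genes were Pld5, a phospholipase D family member, at 31.0 CPM against 2.40 CPM in the other members, and Nxph2, a neurexophilin that binds neurexins. It carried Cux2 at 329 CPM and Slc17a6 at 142 CPM, and 69.5% of its nuclei held a UMI of Slc17a6. Sub-cluster 4, with 390 nuclei, was led by Abcc2, an organic anion transporter, and Tacr3, the neurokinin B receptor, at 95.7 CPM against 9.26 CPM, and 73.6% of its nuclei held Slc17a6. Sub-cluster 7, with 251 nuclei, had Npsr1 among its leading genes, at 766 CPM against 46.5 CPM, together with the substance P receptor Tacr1 at 42.6 CPM against 0.950 CPM. Sub-cluster 8, with 189 nuclei, had Tbpl2 among its leading genes, at 80.2 CPM against 2.86 CPM, and 74.1% of its nuclei held Slc17a6.

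Sub-cluster 3, with 697 nuclei (12.8%), was led by Kcnh8 at 328 CPM against 5.74 CPM and by Sema5b, a transmembrane semaphorin, at 327 CPM against 9.36 CPM. Vwc2l reached 1559 CPM in it. From the near-projecting list, Tle4 lay at 742 CPM, Rapgef3 at 75.5 CPM, Lypd1 at 63.8 CPM and Fezf2, a factor of deep-layer neurons, at 53.5 CPM, while Slc17a8 lay at 0.614 CPM. Slc17a6 was found in 36.9% of its nuclei.

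Sub-cluster 5, with 333 nuclei and a median of 16098 UMIs, was led by Lef1, at 299 CPM against 3.44 CPM, and also had Cpa6, a secreted carboxypeptidase, at 1134 CPM against 15 CPM. Sub-cluster 6, with 276 nuclei, was led by the intermediate filament gene Prph and the cadherin Cdh23, and 2.17% of its nuclei held Slc17a6, within the range of the Prox1 nuclei. Sub-cluster 12, with 151 nuclei and the small proteoglycan gene Dcn at 172 CPM against 11.1 CPM, was likewise low, at 5.30%. Sub-cluster 11, with 168 nuclei, had the highest Fn1 level of the 15, at 249 CPM, with Vwc2l at 153 CPM and Slc17a6 in 66.7% of its nuclei. Sub-cluster 10, with 174 nuclei, was led among others by Rorb, a nuclear receptor of layer 4 cortical neurons, at 400 CPM against 37.3 CPM. Slc17a6 therefore ranged from 2.17% of nuclei in sub-cluster 6 to 74.1% in sub-cluster 8 among the 15 sub-clusters.

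**Figure D2:**
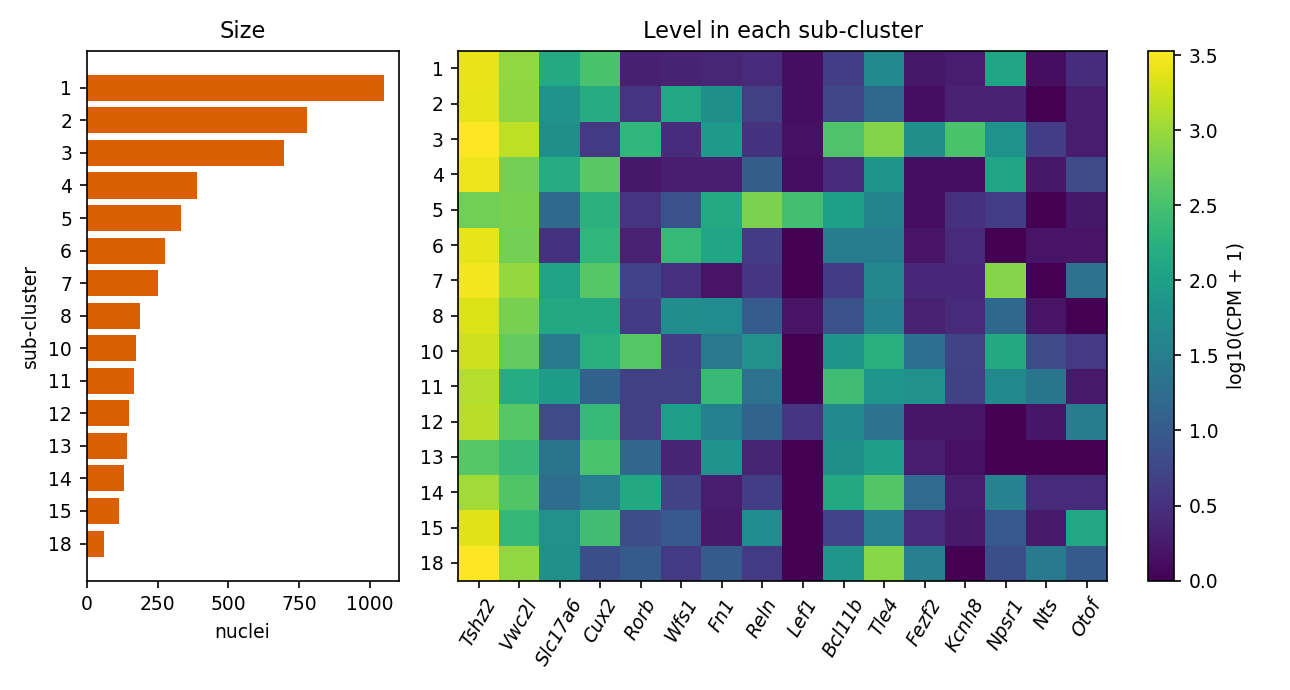
The 15 sub-clusters below 50% doublet-scored nuclei, with bars for the number of nuclei and colour for the level of each gene as log10(CPM + 1). Kcnh8 (328 CPM) and Vwc2l (1559 CPM) are highest in sub-cluster 3, and Lef1 is highest in sub-cluster 5 (299 CPM).

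Ch25h-/- Tau- replicate 4 had an unusual makeup. Sub-cluster 1 made up 4.49% of its nuclei and between 17.2% and 25% in the other 15 libraries. Sub-cluster 5 made up 18% of it and sub-cluster 11 made up 14.6%, above every other library in both cases. The 4 summed extratelencephalic markers reached 319 CPM in it and 123 to 193 CPM elsewhere. Without this library edgeR's test called 2 genes for tau in Ch25h+/+, 3 for tau in Ch25h-/- (the added one being Slc39a2, a zinc transporter gene, at -1.56), and 0 for loss of Ch25h in Tau+ and in Tau-, and some of the values below are also given without it.

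As a share of excitatory nuclei, the Tshz2 Vwc2l nuclei did not separate the groups. The share was 11.4%, 15.1%, 12.1% and 16.5% in Ch25h+/+ Tau+ (mean 13.8% ± 2.42, SD, n = 4) and 10.6%, 10.7%, 15.5% and 18.5% in Ch25h+/+ Tau- (13.8% ± 3.84). It was 14.1%, 13.1%, 16.9% and 13.8% in Ch25h-/- Tau+ (14.5% ± 1.68) and 13.7%, 10.1%, 17.6% and 4.93% in Ch25h-/- Tau- (11.6% ± 5.37). All 4 groups overlapped, and the lowest value of all, 4.93% (Wilson 95% interval 4.02% to 6.03%, counting error only), came from Ch25h-/- Tau- replicate 4. The difference with tau was -0.0383 percentage points in Ch25h+/+ (two-sided exact permutation p = 1.0, where the smallest possible is 0.0286). In Ch25h-/- it was 2.91 percentage points (exact permutation p = 0.429, adjusted over 6 effects 0.83). Leaving out 1 library gave 0.696 (without replicate 4 of the Tau- group) to 4.91 percentage points (without its replicate 3, exact permutation p = 0.0571, adjusted 0.343). Loss of Ch25h gave 0.723 percentage points in Tau+ (exact permutation p = 0.629, adjusted 0.83) and -2.23 in Tau- (p = 0.514 by exact permutation, adjusted 0.83). With 1 library left out, the difference in Tau+ lay between -0.0955, when replicate 3 of Ch25h-/- Tau+ was the one omitted, and 1.63, when replicate 4 of Ch25h+/+ Tau+ was. The difference in Tau- lay between -4.23 without Ch25h-/- Tau- replicate 3 and -0.0109 without its replicate 4. The tau difference in Ch25h+/+ likewise lay on both sides of 0, from -1.12 without Ch25h+/+ Tau- replicate 1 to 1.51 without its replicate 4. Each nucleus was also thinned to 2000 UMIs and the rule applied again. This left 498 Tshz2 Vwc2l nuclei (6 to 49 a library) among 7580 excitatory nuclei, a small part of the full set. After thinning, the share ranged from 2.69% to 14.3%. The tau difference was then -2.30 percentage points in Ch25h+/+ and 4.28 in Ch25h-/- (exact permutation p = 0.0857, adjusted 0.514). The difference with Ch25h loss was then 2.55 percentage points in Tau+ and -4.03 in Tau-. As a share of all nuclei instead of excitatory nuclei, each of the 4 differences had the other sign: 0.636 percentage points with tau in Ch25h+/+, -0.27 with tau in Ch25h-/-, -0.14 with Ch25h loss in Tau+ and 0.766 with Ch25h loss in Tau-. None of these had an exact permutation p under 0.05. Fewer cells and fewer recovered nuclei cannot be told apart in these shares.

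**Figure D3:**
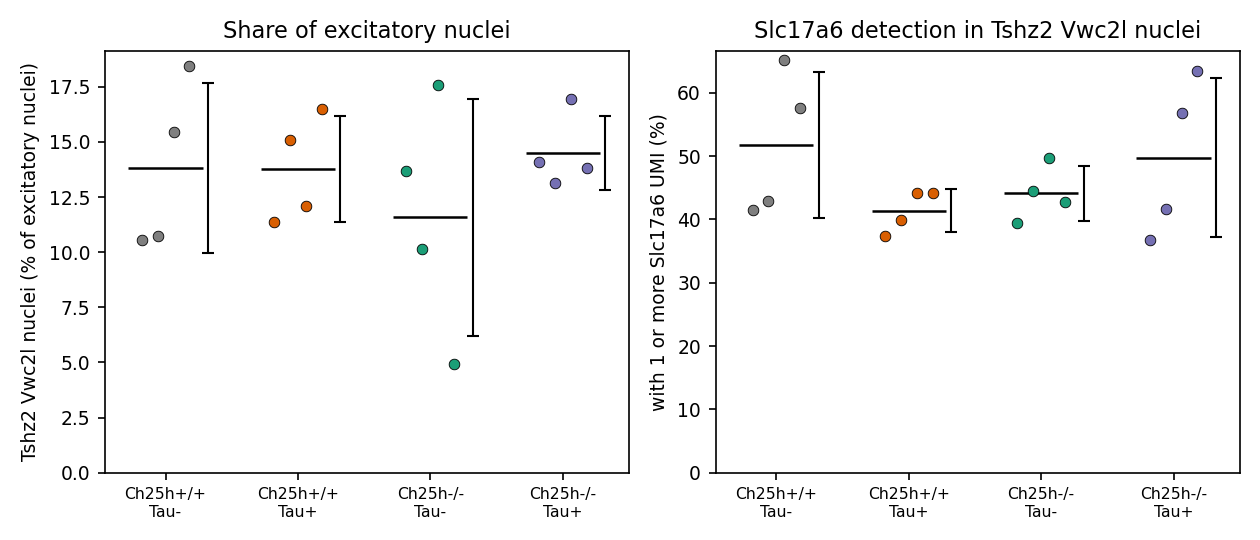
Tshz2 Vwc2l nuclei as a percentage of excitatory nuclei, 1 point per library, with the mean and SD of each group of 4. The groups overlap, and Ch25h-/- Tau- replicate 4 lies lowest at 4.93%.

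Gene levels were compared on UMIs summed over the Tshz2 Vwc2l nuclei of each library, with edgeR's quasi-likelihood test on 13638 genes. The tau contrast called 2 genes in Ch25h+/+ (0.0147% of those tested) and 2 in Ch25h-/- (0.0147%), the same pair of noncoding genes both times. Loss of Ch25h called 0 genes in Tau+ (0%), 0 in Tau- (0%), and the interaction called 0 (0%). An unadjusted edgeR p under 0.05 was found for 555, 722, 435, 353 and 470 genes in these 5 contrasts. The DESeq2 calls numbered 4, 5, 0, 0 and 0 (0.0293% and 0.0367% for the tau contrasts).

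The called genes, Gm43049 and Gm32754, lie close together on chromosome 3. Gm43049 (ENSMUSG00000105777, chr3:140692038-140760704, minus strand, GRCm38 with GENCODE M21) lies 144.3 kb from Gm32754 (ENSMUSG00000104544, chr3:140904998-140917459, minus strand). Both are annotated as long intergenic noncoding RNAs with no described function. The last 100 bases of 3 annotated spliced transcripts of these genes are shown because the 3' kit counts RNA from its tail, and capitals mark the poly(A) signal AATAAA where it falls in the last 40 bases of the transcript strand.
Gm43049-202: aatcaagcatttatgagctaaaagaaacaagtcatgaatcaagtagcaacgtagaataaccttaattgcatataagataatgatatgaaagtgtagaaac
Gm32754-201: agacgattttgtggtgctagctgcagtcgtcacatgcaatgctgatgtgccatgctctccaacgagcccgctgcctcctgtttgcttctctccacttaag
Gm32754-202: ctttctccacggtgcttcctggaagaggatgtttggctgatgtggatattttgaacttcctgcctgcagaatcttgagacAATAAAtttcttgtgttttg
Of these 3, only Gm32754-202 holds the signal in that window, as do 2718 of 9096 annotated lincRNA transcripts of at least 100 bases (29.9%). The sequences are those of the annotation, and which transcript end was counted was not tested.

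Gm43049 was present in every Tau+ library and almost absent from every Tau- library. It reached 77.3, 96.7, 65.8 and 81.7 CPM in Ch25h+/+ Tau+ and 87.4, 95.8, 73.0 and 77.3 CPM in Ch25h-/- Tau+. In Ch25h+/+ Tau- it lay at 0, 0.327, 0 and 0 CPM, and in Ch25h-/- Tau- at 0.217, 0.359, 0 and 0 CPM. In neither genotype did the groups overlap, as for 2.49% of all genes tested in Ch25h+/+ and 3.15% in Ch25h-/-. The UMIs numbered 1350 against 1 in Ch25h+/+ (ratio 1000, 95% counting interval 180 to 39600) and 1293 against 2 in Ch25h-/- (668, 184 to 5520). The edgeR adjusted p was 2.73e-13 and 1.19e-13. A UMI of Gm43049 was found in 40.7% to 55.0% of Tshz2 Vwc2l nuclei in Tau+ libraries and in 0% to 0.297% in Tau- libraries. In Tau+ libraries it was found in all 15 sub-clusters, at 52.1 to 105 CPM.

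Gm32754 followed the same split at a lower level. It lay at 5.13, 10.2, 4.62 and 9.00 CPM in Ch25h+/+ Tau+ and at 7.35, 9.19, 9.01 and 8.4 CPM in Ch25h-/- Tau+, and at 0 in all 8 Tau- libraries. Against 3 counts over the group, it was at least 32.2-fold higher with tau in Ch25h+/+ (edgeR adjusted p = 3.32e-04) and at least 43.4-fold higher in Ch25h-/- (adjusted p = 8.58e-05). A neighbouring noncoding gene, 4930590L14Rik (chr3:140951876-140953247, plus strand), was too low to be tested, with 35 UMIs against 0 and 34 against 0. Earlier results of these data had already marked these genes, so the repeat of their difference here is no independent evidence.

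**Figure D4:**
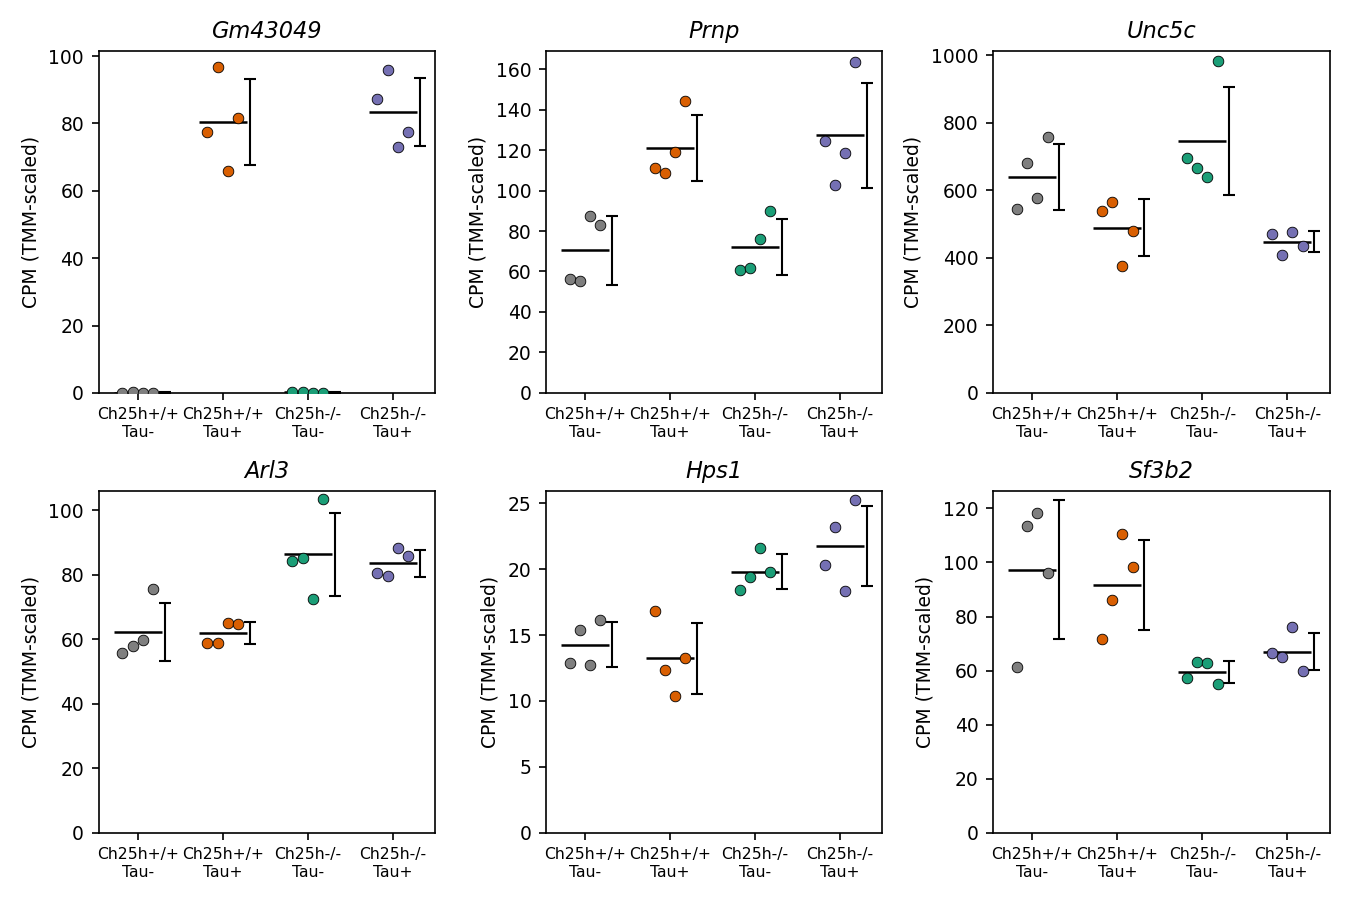
Levels in Tshz2 Vwc2l nuclei (CPM with TMM-scaled library sizes), with 1 point per library and the mean and SD in the 4 groups, for 6 genes: Gm43049, Prnp, Unc5c, Arl3, Hps1 and Sf3b2. Gm43049 separates Tau+ from Tau- libraries completely, Prnp separates them within each genotype, and Unc5c overlaps between Tau+ and Tau- in Ch25h+/+.

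Prnp, which encodes the prion protein of the neuronal surface (chr2:131909928-131938429, plus strand), was the remaining gene to pass, in a contrast averaged over both genotypes that was added after the tests within each genotype had been seen. It lay at 111, 109, 119 and 144 CPM in Ch25h+/+ Tau+ and at 56.2, 55.2, 87.4 and 83.2 CPM in Ch25h+/+ Tau-. In Ch25h-/- it lay at 124, 103, 118 and 164 CPM with tau and at 60.7, 61.7, 76.0 and 90.1 CPM without. Every Tau+ library was above every Tau- library. Within genotypes the edgeR log2 fold change was 0.79 (SE 0.17, adjusted p = 0.607) and 0.83 (SE 0.17, adjusted p = 0.357), which did not pass, while DESeq2 gave adjusted p = 0.0459 and 0.0140. With a term for replicates 1 and 2 against 3 and 4, edgeR gave Prnp an adjusted p of 0.000818 in Ch25h+/+ and 0.000385 in Ch25h-/-. Averaged over both genotypes Prnp rose by 0.81 (SE 0.12, edgeR adjusted p = 0.0129), 1 of 3 genes called (0.022%). Without Ch25h-/- Tau- replicate 4 it gave 0.86 (SE 0.12). When replicate 1 of Ch25h-/- Tau- was left out, Prnp no longer passed (edgeR adjusted p = 0.0626), and the same held for replicate 2 of that group (edgeR adjusted p = 0.0567). Prnp was higher in Tau+ in all 15 sub-clusters, which share the same libraries. In the other excitatory nuclei Prnp lay at 109.6 to 152 CPM in Tau+ and at 55.7 to 98.1 CPM in Tau-. The tau effect on Prnp in the Tshz2 Vwc2l nuclei differed from that in the other excitatory nuclei by 0.14 (SE 0.10) in Ch25h+/+ and by 0.03 (SE 0.10) in Ch25h-/-, neither of which passed edgeR's test. Mapt, the endogenous tau gene, lay at 349 to 396 CPM, 336 to 423 CPM, 380 to 429 CPM and 336 to 358 CPM in the 4 groups in the order above, and its log2 fold change with tau in Ch25h-/- was 0.24 (SE 0.08, edgeR adjusted p = 0.924).

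Unc5c, a netrin receptor of growing axons, begins 704.5 kb from Gm43049 (chr3:141465216-141834924, plus strand) and did not pass edgeR's test. It lay at 538, 564, 375 and 478 CPM in Ch25h+/+ Tau+ and at 545, 680, 576 and 759 CPM in Ch25h+/+ Tau-. In Ch25h-/- it lay at 471, 409, 476 and 435 CPM with tau and at 694, 666, 639 and 983 CPM without, and there the groups did not overlap. The averaged log2 fold change was -0.56 (SE 0.10, edgeR adjusted p = 0.0930, DESeq2 adjusted p = 4.95e-04). Values were lower in Tau+ in all 15 sub-clusters, which share the same libraries and so are not separate evidence. Ndst3, a heparan sulphate sulphotransferase on the same chromosome, gave -0.65 (SE 0.12, edgeR adjusted p = 0.0930), and Rwdd3, a regulator of sumoylation, gave 0.76 (SE 0.15, adjusted p = 0.118). Without the filter on low counts, Ndst3 and Rwdd3 both passed edgeR's test (adjusted p = 0.0217 for each). DESeq2 gave adjusted p = 4.95e-04 for Ndst3 and 0.0151 for Rwdd3. Ndst3 also passed when replicate 3 of Ch25h+/+ Tau+, replicate 1 of Ch25h+/+ Tau- or replicate 3 of Ch25h-/- Tau- was left out (edgeR adjusted p = 0.0223, 0.0342 and 0.00651). DESeq2 called 11 genes in the averaged tau contrast (0.0807%), of which 6 (54.5%) lie on chromosome 3, against 5.01% of the genes tested.

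The 3 lowest p-values for loss of Ch25h averaged over both tau states, a contrast also added after the others had been seen, belonged to genes on chromosome 19, where Ch25h itself lies (chr19:34473778-34475164, minus strand). Ch25h gave 19 UMIs in all the Tshz2 Vwc2l nuclei, of which 5 came from Ch25h+/+ Tau+, 0 from Ch25h+/+ Tau-, 7 from Ch25h-/- Tau+ and 7 from Ch25h-/- Tau-. The highest level, 1.80 CPM, was in Ch25h-/- Tau- replicate 4, and barcodes under 100 UMIs held 1.52 CPM on average. These few UMIs were not lower in the libraries labelled Ch25h-/-, and 19 UMIs are too few to check that label. The gene did not pass the filter, and the labels do not give the deleted part of it, so Ch25h genotype is used as labelled in every contrast. Gm26902, which overlaps it on the other strand, lay at 1.10 to 1.93 CPM in Ch25h+/+ Tau+, at 0.293 to 1.96 CPM in Ch25h+/+ Tau-, at 0 to 0.342 CPM in Ch25h-/- Tau+ and at 0 to 0.718 CPM in Ch25h-/- Tau-, with 43 UMIs in all and no test. Arl3, a small GTPase of cilia 12.1 Mb from Ch25h, lay at 59.0, 59.0, 65.1 and 64.7 CPM in Ch25h+/+ Tau+ and at 80.5, 79.7, 88.2 and 85.7 CPM in Ch25h-/- Tau+. In Tau- it lay at 55.6, 57.8, 59.9 and 75.6 CPM with Ch25h and at 84.4, 85.1, 72.4 and 104 CPM without, where 1 pair of libraries overlapped. Averaged over both tau states its log2 fold change was 0.44 (SE 0.08, edgeR adjusted p = 0.145, DESeq2 adjusted p = 0.00852), and 0.39 (SE 0.08) when Ch25h-/- Tau- replicate 4 was omitted. Hps1, a subunit of a complex of lysosome-related organelles 8.28 Mb from Ch25h, gave 0.59 (SE 0.11, edgeR adjusted p = 0.175, DESeq2 adjusted p = 0.0291). In Tau- it lay at 12.9, 15.3, 12.8 and 16.1 CPM with Ch25h and at 18.4, 19.4, 21.6 and 19.8 CPM without, which did not overlap, as for 1.78% of all genes. The noncoding gene Gm35867 gave 2.10 (SE 0.38), the splicing factor Sf3b2 gave -0.57 (SE 0.11) and the oxidoreductase Pyroxd2 gave -1.92 (SE 0.40). No gene passed edgeR's test in this averaged contrast (0 called, 0%), while 310 had an unadjusted p under 0.05. Without the filter on low counts edgeR gave adjusted p = 0.00386 for Gm35867 and 0.0344 for Arl3. Gm35867 also passed without Ch25h+/+ Tau- replicate 2 (edgeR adjusted p = 0.00530), and so did Arl3 when replicate 4 of that group was left out (edgeR adjusted p = 0.0382). The 5 genes that passed in DESeq2 (0.0367%) all lie on chromosome 19, which holds 3.25% of the genes tested.

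Outside chromosomes 3 and 19, DESeq2 added 2 genes to Gm43049, Gm32754, Prnp and Unc5c in the tau contrasts within a genotype. Prr16, which encodes the translation regulator Largen, lay at 377, 333, 359 and 372 CPM in Ch25h+/+ Tau+ and at 481, 456, 527 and 463 CPM in Ch25h+/+ Tau-, without overlap (log2 fold change -0.42, SE 0.09, edgeR adjusted p = 0.351, DESeq2 adjusted p = 0.0181). The noncoding gene 4930467D21Rik lay at 5.64, 2.07, 3.54 and 3.92 CPM in Ch25h-/- Tau+ and at 12.4, 8.25, 11.2 and 15.3 CPM in Ch25h-/- Tau-, again without overlap (-1.55, SE 0.30, edgeR adjusted p = 0.192, DESeq2 adjusted p = 0.0238; -1.46 with replicate 4 of Ch25h-/- Tau- omitted). Neither passed edgeR's test with the filter on low counts. Without that filter 4930467D21Rik did (edgeR adjusted p = 0.0156). Among the markers that chose the nuclei, Slc17a6 lay at 64.1, 50.9, 60.8 and 63.7 CPM in Ch25h+/+ Tau+ and at 68.8, 75.8, 122 and 89.3 CPM in Ch25h+/+ Tau-. In Ch25h-/- it lay at 51.5, 52.8, 87.8 and 113 CPM with tau and at 56.6, 73.2, 64.2 and 57.6 CPM without. The Ch25h-/- groups overlapped while the Ch25h+/+ groups did not, as for 2.49% of all genes tested. Replicates 3 and 4 were higher than replicates 1 and 2 in Ch25h+/+ Tau- and in Ch25h-/- Tau+. Neither Ch25h+/+ Tau+ nor Ch25h-/- Tau- divided in this way. The rule used this gene, so its levels are given with no test.

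The wider gene lists held no called gene within a genotype or tau state apart from the chromosome 3 genes. In Ch25h+/+, 8 of 19 genes of cholesterol synthesis and uptake had an unadjusted p under 0.05 and were lower with tau, and 0 were higher, with a median log2 fold change of -0.37. Over all genes the unadjusted share in that contrast was 4.07% and the median was -0.0048. In Ch25h-/- 2 of 19 were lower and 0 higher (median -0.24), where the unadjusted share over all genes was 5.29%. Idi1, an isomerase of the mevalonate pathway, lay at 4.03, 6.59, 7.32 and 5.79 CPM in Ch25h+/+ Tau+ and at 9.00, 8.82, 12.3 and 10.3 CPM in Ch25h+/+ Tau-, and these did not overlap. In Ch25h-/- it lay at 9.40, 4.82, 6.44 and 7.28 CPM with tau and at 9.11, 11.8, 11.0 and 15.3 CPM without, which overlapped. Averaged over genotypes Idi1 gave -0.70 (SE 0.17, edgeR adjusted p = 0.342) and Cyp51, lanosterol demethylase, gave -0.36 (SE 0.08, adjusted p = 0.303). The interaction called 0 of the 19, as did every other contrast.

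Immediate early genes, transcribed within minutes of neuronal activity, had low medians in the contrasts that hold the Ch25h-/- Tau+ libraries. In Ch25h-/-, 5 of 16 tested had an unadjusted p under 0.05 and were lower with tau and 0 were higher (median -0.44). In that contrast 5.29% of all genes had such a p. With Ch25h loss in Tau+ 5 of 16 were lower and 0 higher (median -0.46, with 3.19% of all genes at that p). In Ch25h+/+ the tau contrast had 0 of 16 either way (median 0.09, with 4.07% of all genes at that p). Ch25h loss in Tau- had 1 of 16 higher and 0 lower (2.59% of all genes at that p). These contrasts share libraries, so they are given side by side. Jun lay at 14.7, 13.8, 13.9 and 13.1 CPM in Ch25h+/+ Tau+ and at 9.57, 8.96, 5.47 and 3.36 CPM in Ch25h-/- Tau+, without overlap, as for 2.73% of all genes. It lay at 14.5, 9.14, 6.87 and 10.3 CPM in Ch25h+/+ Tau- and at 8.89, 13.6, 16.1 and 18.9 CPM in Ch25h-/- Tau-. The interaction of Jun was -1.31 (SE 0.37), which did not pass edgeR's test after adjustment. It was among the 3.45% of all genes with an unadjusted p under 0.05 there. Nr4a2, an activity-regulated nuclear receptor, likewise did not pass, and its interaction was also among that share of genes.

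Heat-shock chaperones, with 11 genes tested and 0 called, had medians of -0.36 with tau in Ch25h-/- and -0.39 with Ch25h loss in Tau+, the contrasts that hold the Ch25h-/- Tau+ libraries. The medians were -0.09 with tau in Ch25h+/+ and -0.14 with Ch25h loss in Tau-. At an unadjusted p under 0.05 the first 2 of these contrasts had 2 and 3 genes lower and 0 higher, and the others had 0 either way. The share of all genes at that p was 5.29%, 3.19%, 4.07% and 2.59% in the 4 contrasts, in the order given. Hsp90aa1, a cytosolic chaperone, lay at 119 and 105 CPM in replicates 3 and 4 of Ch25h+/+ Tau- and at 52.4 and 48.7 CPM in replicates 1 and 2. In Ch25h-/- Tau- it lay at 91.1 and 94.6 CPM in replicates 3 and 4 and at 46.6 and 47.4 CPM in replicates 1 and 2. For Hsp90aa1 the Tau+ libraries did not divide in this way, at 48.4, 46.5, 45.8 and 73.3 CPM in Ch25h+/+ and at 45.3, 35.8, 47.3 and 44.3 CPM in Ch25h-/-. Dnaja2 of the same list divided replicates 1 and 2 from 3 and 4 in both Tau+ and both Tau- groups, in the other direction, as given above. These genes were chosen after their values were seen, and the part of the division in the list's medians was not tested. The 22 glutamate receptor genes had medians between -0.06 and 0.06 in the 5 contrasts and 0 called, and the 14 GABA receptor genes between -0.08 and 0.10 and 0 called. The 22 potassium channel genes, which include calcium-activated channels and interacting proteins, the 22 synaptic vesicle genes and the 22 tau kinase genes had medians between -0.10 and 0.10 with 0 called. Of 22 interferon-stimulated genes, 8 passed the filter on low counts and 0 were called. With tau in Ch25h+/+ 8 of 8 had positive values and a median of 0.45, and in Ch25h-/- 6 of 8 did with a median of 0.17. The medians over all genes were -0.0048 and -0.00097. At an unadjusted p under 0.05, 1 of 8 was higher in Ch25h+/+ (4.07% of all genes at that p) and 0 of 8 in Ch25h-/- (5.29%). The filter can keep a low gene that is high in 1 group only, so these signs are a description.

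**Figure D5:**
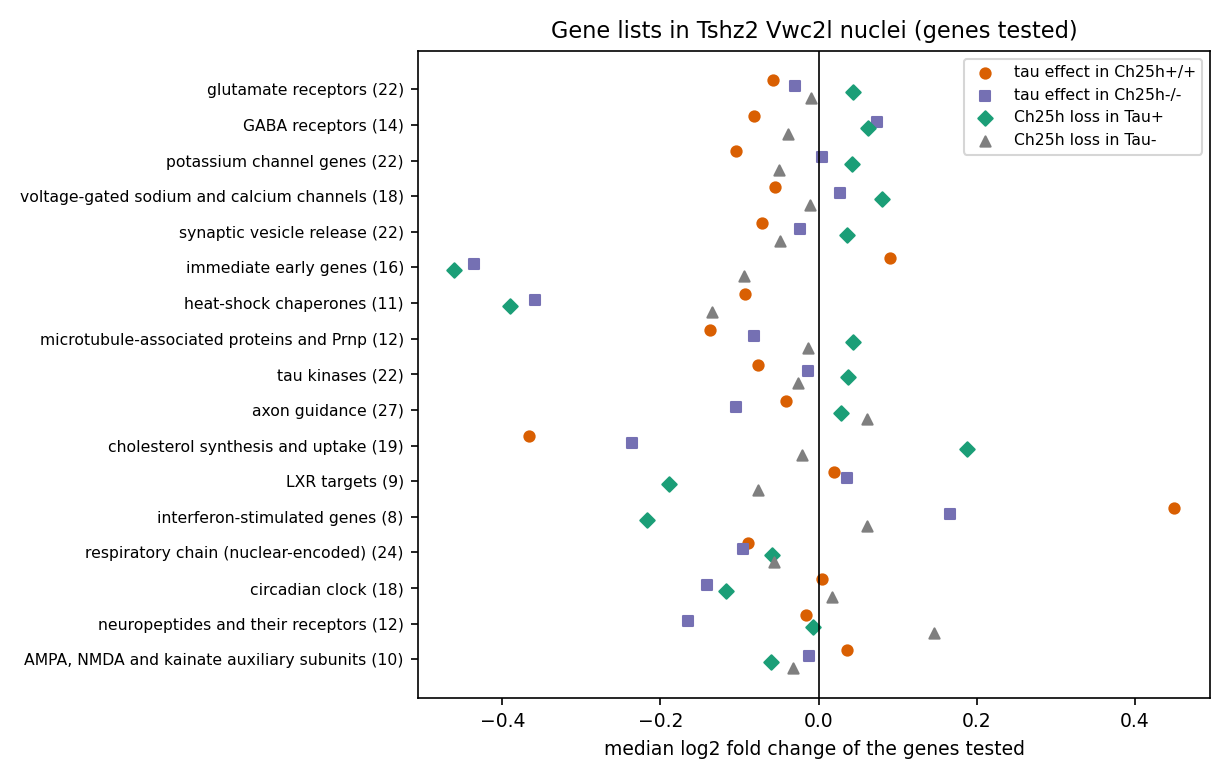
Median log2 fold change of each gene list in the Tshz2 Vwc2l nuclei for each contrast, on a linear axis. Cholesterol genes lie at -0.37 with tau in Ch25h+/+, immediate early genes at -0.44 with tau in Ch25h-/-, and receptor and channel lists near 0.

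The effects in the Tshz2 Vwc2l nuclei were also tested against those in the other excitatory nuclei of the same libraries, over 16434 genes. The tau effect in Ch25h-/- differed for 1 gene (0.00608%), and the other 3 contrasts called 0 (0%), with 567, 517 and 600 genes at an unadjusted p under 0.05. That gene was Ifit1, an interferon-induced antiviral protein 165.7 kb from Ch25h. In the Tshz2 Vwc2l nuclei it lay at 3.25, 2.30, 2.90 and 1.68 CPM in Ch25h-/- Tau+ and at 3.25, 3.23, 3.85 and 6.30 CPM in Ch25h-/- Tau-. In the other excitatory nuclei it lay at 12.9, 6.79, 1.09 and 7.64 CPM with tau and at 0.917, 1.67, 1.52 and 1.88 CPM without. With tau, 3 of 4 libraries were thus high in the other excitatory nuclei and none in the Tshz2 Vwc2l nuclei. The difference of the log2 effects was -2.91 (SE 0.45, edgeR adjusted p = 0.00660). Without Ch25h-/- Tau- replicate 4 it was -2.86 (edgeR adjusted p = 0.0358). It was not called without Ch25h-/- Tau+ replicate 1 or replicate 2, without Ch25h-/- Tau- replicate 1 or replicate 3, or when each nucleus also needed a UMI of Slc17a6. In Ch25h+/+ the difference was -1.82 and did not pass (unadjusted p = 2.83e-04), where Tau+ replicate 1 lay at 12.8 CPM in the Tshz2 Vwc2l nuclei and at 17.9 CPM in the others.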

How the data were processed

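The authors deposited raw UMI counts per gene and barcode for each of 16 libraries, per the file headers, which name Cell Ranger 4. The submitters' processing notes name another version, Cell Ranger 3.1.0, and the mouse build mm10, so the version behind the counts is unsettled. The barcode and gene lists hold no measurement. Whether intronic reads were counted is not given in the sources used here. Of 32285 genes, 99.8% matched GENCODE M21 on GRCm38.

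Nuclei were kept and chosen by the thresholds in the text. The members and all gene lists were chosen with earlier results of these data known. Doublets were scored with Scrublet, and the highest-scoring 0.8% per 1000 nuclei of a library were marked. Sub-clusters used 2000 variable genes, 30 principal components, 20 neighbours and Leiden clustering (scanpy 1.11.5, leidenalg 0.10.2, resolution 0.5). Leading genes of a sub-cluster are those of highest ratio to the other members.

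UMIs were summed per library and tested with edgeR 4.0.16 (quasi-likelihood, robust, TMM scaling, filterByExpr, 1 mean per group over all 16 libraries) in R 4.3.3, with Benjamini-Hochberg adjustment over all genes and a threshold of 0.05. Effects in the 2 sets of nuclei were compared in 1 fit with the library as a block. Single-gene levels per library in the Tshz2 Vwc2l nuclei are CPM on TMM-scaled library sizes. Levels in the other nuclei and in barcodes under 100 UMIs are CPM without TMM, as are marker, ratio and sub-cluster levels. Where single-gene levels per library of the 2 sets of nuclei stand side by side, their scaling therefore differs. Shares were tested by exact permutation (scipy 1.17.1). DESeq2 1.42.0, other filters, thresholds, depths and left-out libraries were alternatives. The fits were tested on simulated data.

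Genes named were drawn from the called genes, the 3 of lowest p per contrast, up to 4 per list and fixed markers. The 25 genes of highest ratio and the genes at the altered loci were further sources. Not every such gene is named: Camk2n1, Gm36899, Cdc42ep3, Gm29626 and Gm26586, each among the 3 of lowest p in a contrast, and most list members were left out. Examples within a list, Sf3b2, Pyroxd2, Rwdd3, Hsp90aa1, Dnaja2, Slc39a2 and the leading genes of sub-clusters were chosen after their values were seen where the rule did not name them. Intervals and floors cover counting error only.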

Additional observations from a re-analysis of the deposited data

Results flagged for a closer look

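In 44 groups of 4 libraries tested for a single library far from the rest (Dixon's test of the gap over the range), 2 stood out, and chance gives about 1 in 20. The share of Tshz2 Vwc2l nuclei scored as doublets was 7.40% in Ch25h+/+ Tau+ replicate 4, below the other libraries of its group. Unc5c lay at 983 CPM in Ch25h-/- Tau- replicate 4, above 639 to 694 CPM in the rest of its group. This is the library with 89 such nuclei and a high share of sub-clusters 5 and 11, in which Unc5c was highest. Without it the log2 fold change of Unc5c with tau in Ch25h-/- was -0.57 (edgeR adjusted p = 0.360), and their part in the result was not tested further.

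The tau effect on Ifit1 in Ch25h-/- differed between the Tshz2 Vwc2l nuclei and the other excitatory nuclei, by -2.91 on the log2 scale, in a test of the difference itself. The call was lost when any 1 of 4 libraries was left out, or when a UMI of Slc17a6 was required.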

How the results depend on the processing

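All 106 alternatives for the shares kept their side of the adjusted p threshold, but this shows little about stability. Within a genotype or tau state the permutation test had at most 70 arrangements, so an adjusted p under the threshold was hardly within reach. The count also ignores sign: as a share of all nuclei, every difference within a genotype or tau state changed sign. For called genes, 172 alternative counts stayed within 1.5 times and 21 did not. DESeq2 called 4 (tau in Ch25h+/+), 5 (tau in Ch25h-/-), 11 (tau averaged) and 5 (Ch25h loss averaged). Without a filter on low counts edgeR called 5 for tau in Ch25h-/-, 1 for Ch25h loss in Tau+, 6 for tau averaged and 3 for Ch25h loss averaged. Replicates 1 and 2 alone gave 6 (tau in Ch25h+/+), 1 (Ch25h loss in Tau+), 1 (interaction), 9 (tau averaged) and 1 (Ch25h loss averaged). Replicates 3 and 4 alone gave 8 (tau in Ch25h-/-) and 17 (tau averaged). Genes whose effect differed from the other excitatory nuclei numbered 41, 135, 15 and 63 without a filter. With the tau effect in Ch25h-/- they numbered 2 with a block for replicates 1 and 2 against 3 and 4, 107 with replicates 3 and 4 alone, 2 with Tshz2 at 5 or more and 0 with Slc17a6 required. With replicates 3 and 4 alone, Ch25h loss gave 7 in Tau+ and 12 in Tau-. The causes were not tested.

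Leaving out 1 library gave 2 to 3 genes for tau in Ch25h-/-, 2 to 5 for tau averaged, 0 to 1 for Ch25h loss in Tau+, 0 to 1 in Tau-, 0 to 1 averaged, and 0 to 4 for the difference in tau effect in Ch25h-/-. Without Ch25h+/+ Tau- replicate 2, Gm35867 passed with Ch25h loss in Tau+ (edgeR adjusted p = 0.0489), as it did without a filter (0.0136). Without Ch25h+/+ Tau- replicate 1, Sf3b2 passed with Ch25h loss in Tau- (adjusted p = 0.0313, edgeR). With replicates 3 and 4 alone, Gm32754 missed the threshold in Ch25h+/+ (edgeR adjusted p = 0.0862). With 4 libraries a group, the permutation test within a stratum cannot go below 0.0286. No paired analysis was possible because replicate numbers were given in accession order and pair no libraries. The term for replicates 1 and 2 against 3 and 4 is no pairing; with it Prnp passed edgeR's test for tau in both genotypes.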
